A study of Arabidopsis thaliana with 8 samples.

Results

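Cytochrome P450 genes were followed on 8 expression arrays of Arabidopsis thaliana seedlings. In some of the groups the embryo regulator LEAFY COTYLEDON2 (LEC2) had been switched on for a short time, and the others were controls. Members are the probe sets whose platform annotation lists a single gene with a symbol made of CYP, a family number and a subfamily letter, so that cyclophilins, which share the CYP prefix, stay out. The rule finds 23 probe sets for 23 genes, among 13513 probe sets with a single annotated gene and 22746 probe sets in all that are not controls. RefSeq (assembly TAIR10.1) names 236 genes in this way, so the 23 are 9.75% of them, and the other P450 genes were not analysed here. Seedlings of accession Ws-0 were 8 days old in all 4 groups, each with 2 biological replicates and 1 Affymetrix ATH1 array per replicate. A 35S:LEC2-GR line was sampled uninduced, after 1 h and after 4 h of dexamethasone, and wild type Ws-0 seedlings, without the transgene, were sampled after 4 h of dexamethasone. The 35S promoter drives the fusion in most cells of the plant, and the glucocorticoid receptor part is meant to keep it inactive until dexamethasone is given. The series as used here holds no untreated wild type and no wild type at 1 h.

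Cytochrome P450s are haem enzymes, most of them anchored in the endoplasmic reticulum, which use oxygen and electrons from a reductase to hydroxylate or rearrange small molecules. In plants they make and inactivate hormones such as brassinosteroids, gibberellins, abscisic acid and jasmonates, and they build defence compounds, pigments, lignin and cuticle. Families carry a number and subfamilies a letter, and members of a subfamily often lie side by side on a chromosome as tandem copies. CYP71B is one of the largest subfamilies of Arabidopsis and holds the last enzyme of camalexin synthesis, CYP71B15 (PAD3), although the substrates of many other members are not established.

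Of the 23 genes, 19 belong to CYP71B and 4 to other subfamilies, namely CYP51G2, CYP78A9, CYP79A2 and CYP84A4. All but CYP51G2, that is 22 genes, belong to the plant P450 clan named after CYP71. No member falls on any of 7 lists of hormone P450s (brassinosteroid synthesis, brassinosteroid inactivation, gibberellins, abscisic acid, jasmonates, cytokinins and strigolactones). Hormone subfamilies therefore gave no value of their own. Of all 15 lists of P450 genes, 5 hold a member, 1 each, and the lists of carotenoid hydroxylases, sterol enzymes and fatty acid and cuticle hydroxylases hold none. The genes on lists are CYP71B6, which acts on indole nitriles near the camalexin pathway, CYP79A2, which turns phenylalanine into the aldoxime of benzylglucosinolate, CYP84A4, an enzyme of arabidopyrone synthesis from phenylpropanoids, CYP71B31, linked to linalool oxidation in flowers, and CYP78A9, whose overexpression enlarges fruits and seeds. CYP71B27 and CYP51G2 are annotated as transcribed pseudogenes in RefSeq.

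Values are intensities on a linear scale, 1 per probe set and array, which the authors' software had scaled so that the mean of each array after trimming 2% from each end was about the same (500.05 on all arrays). Replicates correlated at 0.969 to 0.980 on the log2 scale. No annotated probe set used here names LEC2, so the labels were not checked against the gene itself. The instrument records show that the wild type and uninduced arrays were scanned first, in fluidics modules 1 to 4, and the 1 h and 4 h arrays after them, beginning again at module 1. The module of 4 h replicate 2 is blank, and its record alone carries an operator's comment, on high background in part of the image. The arrays of each group were scanned one after the other, so the order of scanning and the group cannot be told apart in any comparison. Wild type against uninduced and 4 h against 1 h each lie within one stretch of that order, but there too one group came wholly before the other. A test was run where a probe set lay above the 40th percentile of its own array (100 to 119 intensity units) on at least 2 arrays. Of the 23 members 11 met this, all of CYP71B, and 12 did not. Changes are differences of log2(intensity + 45), which understate the change of weak genes. They come from limma, with Benjamini-Hochberg adjustment over all 15026 probe sets tested and a threshold of 0.05. In whole seedlings, fewer cells of a type and less RNA per cell cannot be told apart.

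**Figure D1:**
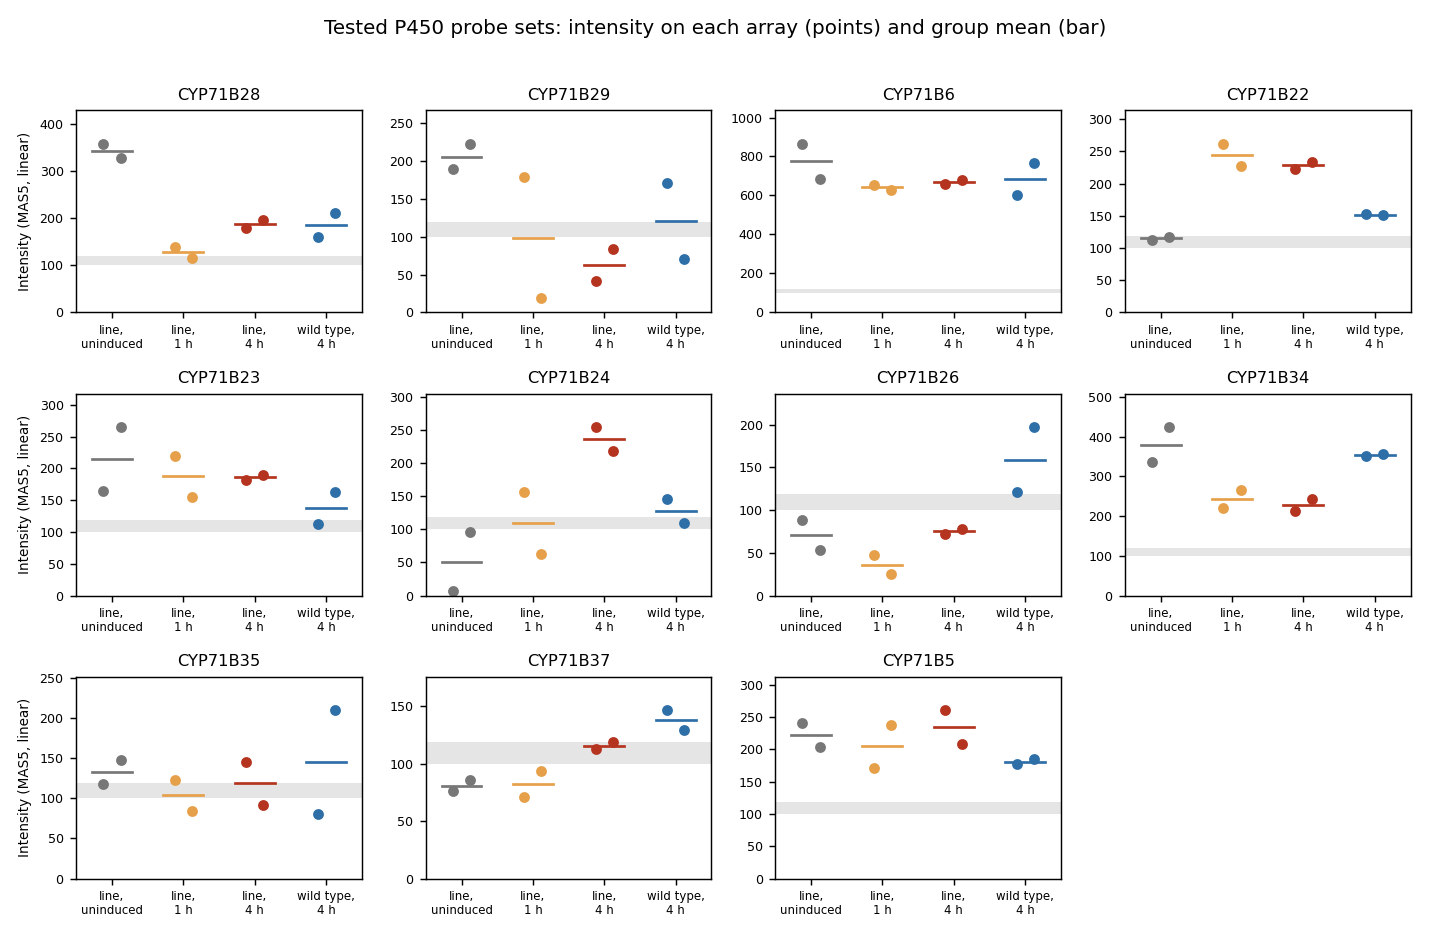
Intensity (linear scale, 1 value per array) of the 11 tested P450 probe sets in the line uninduced, at 1 h and at 4 h and in wild type at 4 h. Points are the 2 arrays of a group, bars their mean, and the grey band the range of the filter level, 100 to 119. CYP71B28 stands highest on both uninduced arrays, and CYP71B22 stands lowest there.

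After 4 h with dexamethasone, 4 of the 11 tested genes differed from the uninduced line: CYP71B24 and CYP71B22 rose, and CYP71B28 and CYP71B34 fell. The same comparison called 35.6% of all probe sets tested, so the share of P450 genes, 36.4%, is near the background. That share includes CYP71B24, which passed the filter only through the treated groups. After 1 h, CYP71B28 was already lower and CYP71B22 already higher, 2 of 11 genes, where 16.7% of all probe sets were called. By direction the background at 4 h was 18.8% higher and 16.8% lower, and at 1 h 9.5% higher and 7.16% lower. Over the 11 genes the changes had a median of -0.13 at 4 h and -0.25 at 1 h, beside -0.01 and 0.00 over all tested probe sets. Over all 23 members the medians were 0.02 and -0.07, beside -0.02 and 0.01 over all probe sets. Counting all 23 members with no filter, the 4 h arrays lay clear of the uninduced ones in 6 genes that were higher and 5 that were lower, beside 27.2% and 29.1% of all probe sets. At 1 h there were 2 higher and 5 lower, beside 24.0% and 23.0%. In both comparisons with the uninduced line, the induced LEC2 fusion, dexamethasone itself and the hours of treatment cannot be told apart.

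CYP71B28 had 357.3 and 328.4 units in the uninduced line, 139.7 and 114.7 at 1 h, 178.5 and 195.8 at 4 h, and 160.1 and 210.1 in wild type at 4 h. Both uninduced arrays lay above the other 6, the 1 h arrays were the lowest, and the 4 h and wild type arrays overlapped. It fell by 1.17 at 1 h (SE 0.23, adjusted p = 0.0018, limma) and by 0.74 at 4 h (SE 0.23, adjusted p = 0.0194). The 1 h call held in all 15 alternative fits (adjusted p 0.0013 to 0.0221). The 4 h call ended without any of the 4 arrays compared (adjusted p 0.0534 to 0.0968 without these).

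CYP71B22 stood at 113.0 and 117.6 in the uninduced line, 261.2 and 227.1 at 1 h, 222.4 and 233.5 at 4 h, and 152.6 and 150.8 in wild type. Wild type lay between the uninduced arrays and the dexamethasone-treated line without overlap. The rise was 0.85 at 1 h (SE 0.23, adjusted p = 0.0176) and 0.77 at 4 h (SE 0.23, adjusted p = 0.0162). The 1 h call was lost without uninduced replicate 1 (adjusted p = 0.0689), uninduced replicate 2 (0.0509) or 1 h replicate 1 (0.106), and with only the compared groups in the fit (0.0505). The 4 h call was lost without uninduced replicate 1 (0.0568), 4 h replicate 1 (0.0609) or 4 h replicate 2 (0.0837).

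CYP71B24 was the gene with the largest rise at 4 h among the members tested. Its intensities were 6.1 and 95.8 in the uninduced line, 156.4 and 63.2 at 1 h, 254.6 and 218.1 at 4 h, and 146.4 and 109.4 in wild type. Both 4 h arrays lay above the other 6, and the uninduced arrays differed widely from each other and stayed under the filter level. CYP71B24 thus passed the filter only through the treated groups, and its call against uninduced is given as a description. The change at 4 h was 1.73 (SE 0.43, adjusted p = 0.0049). It stood at 1.00 without uninduced replicate 1 (adjusted p = 0.0729), the array with the value of 6.1, and at 3.17 with a pseudocount of 1.

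CYP71B34 had 335.4 and 423.5 units in the uninduced line, 221.1 and 265.1 at 1 h, 213.8 and 243.9 at 4 h, and 351.2 and 355.2 in wild type. The treated line lay below both controls without overlap, at 1 h as at 4 h. It fell by 0.63 at 4 h against uninduced (SE 0.20, adjusted p = 0.0236). That call was lost when uninduced replicate 2 was left out (adjusted p = 0.160), and when 4 h replicate 1 (0.123) or 4 h replicate 2 (0.0524) was. With no filter on low values, the 4 h calls of CYP71B28 and CYP71B34 and the 1 h call of CYP71B22 also ended, with adjusted p from 0.0512 to 0.0536. At 1 h the difference was -0.56 and did not pass the test (adjusted p = 0.073).

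CYP71B29, the neighbour of CYP71B28, had 189.7 and 222.6 units in the uninduced line, 178.4 and 18.6 at 1 h, 40.9 and 83.2 at 4 h, and 171.2 and 70.3 in wild type. Its 4 h arrays lay below both uninduced arrays, while replicates of the 1 h and wild type groups were far apart. The difference of -1.26 between 4 h and uninduced missed the threshold (SE 0.48, adjusted p = 0.0545). It passed in 5 of 15 alternative fits, with adjusted p from 0.0077 to 0.259 over all of them.

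**Figure D2:**
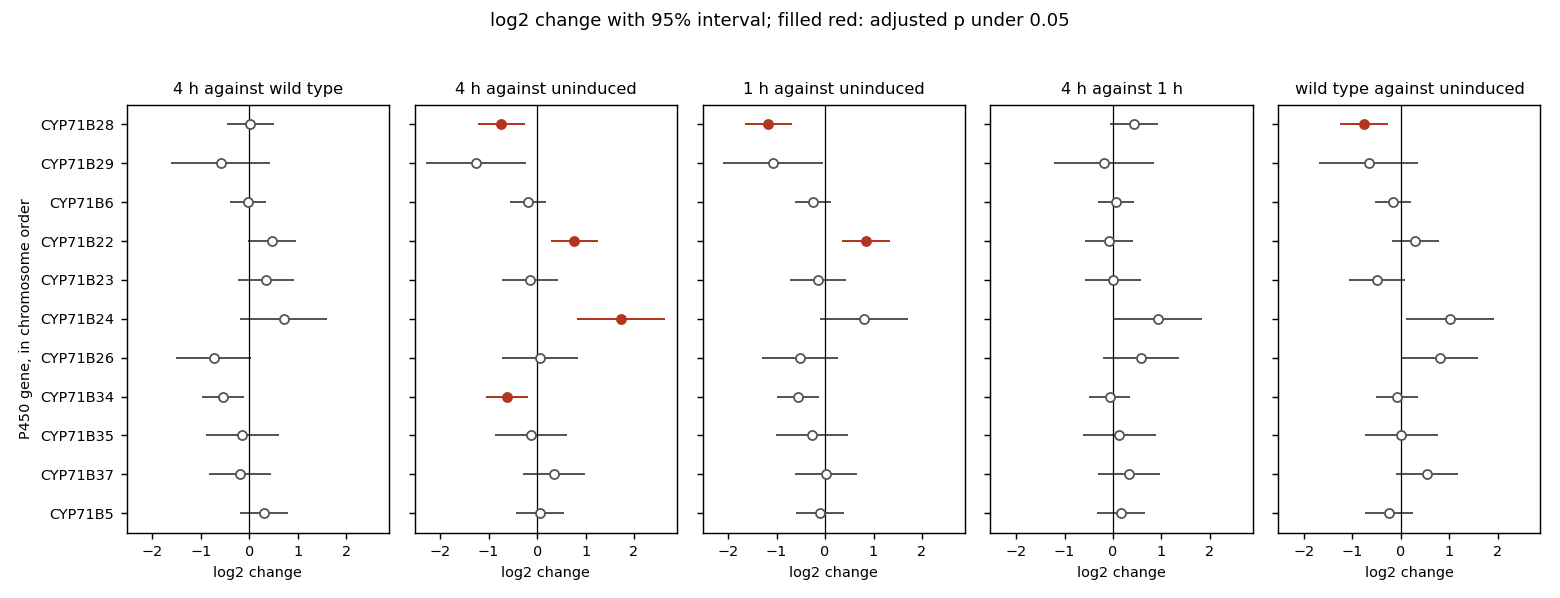
Change in log2(intensity + 45) of the 11 tested P450 genes, in order along the chromosomes, with 95% intervals that are not adjusted for the number of tests. Filled red points have an adjusted p under 0.05. There are 4 such points for 4 h against uninduced, 2 for 1 h against uninduced, 1 for wild type against uninduced and 0 in the other panels.

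Set against wild type after the same 4 h of dexamethasone, no P450 gene was called. Treatment and hours are alike in this comparison, but the induced LEC2 fusion and any standing difference of the line cannot be told apart. limma called 0 of 11 members, and 1, CYP71B34, had an unadjusted p under 0.05, where 6.63% of all probe sets tested were called, 3.42% higher and 3.21% lower. Consequently 0 members were called the same way against both controls, beside 4.35% of all probe sets; these comparisons share the 4 h arrays. CYP71B34 came nearest with a difference of -0.54 (95% interval -0.97 to -0.11, adjusted p = 0.148). CYP71B24 differed by 0.71 (-0.20 to 1.61, adjusted p = 0.469), and CYP71B22 by 0.47 (-0.02 to 0.96, adjusted p = 0.319).

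CYP71B28 differed by 0.02 between 4 h and wild type, with an interval from -0.47 to 0.51. The distance from estimate to interval end ran from 0.37 to 1.03 over the 11 genes. These intervals are not adjusted for the number of tests, so a call needed a difference larger than this distance. Differences of the size of the called changes could therefore have been missed. Counting all 23 members with no filter, the 4 h arrays did not overlap the wild type arrays in 7 genes that were higher and 5 that were lower. Over all 22746 probe sets these shares were 18.9% and 24.3%, and several of the 12 genes lie at the bottom of the scale.

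The control groups themselves, wild type at 4 h and the uninduced line, differ in treatment, in hours and in genotype at once. Of the 11 genes 1 was called, CYP71B28, which was lower in wild type by 0.76 (SE 0.23, adjusted p = 0.0192), where 31.1% of all probe sets were called, 16.8% higher and 14.3% lower. Both groups were scanned in the same stretch, wild type before uninduced, so scan order and group cannot be told apart here either. The call ended without wild type replicate 1 (adjusted p = 0.163) or either uninduced array (0.0538 and 0.0975), and with no filter (0.0525). Among all 23 members, wild type arrays lay clear above the uninduced ones in 6 genes and clear below in 8, beside 29.3% and 26.4% of all probe sets. CYP71B24 was higher in wild type by 1.02, which missed the threshold (adjusted p = 0.0828), passed without uninduced replicate 2 (0.00704) and stood at 0.29 without uninduced replicate 1 (0.645). CYP71B26 had 88.6 and 53.8 units in the uninduced line, 47.5 and 24.6 at 1 h, 72.3 and 78.3 at 4 h, and 120.9 and 197.1 in wild type. It passed the filter only through its wild type arrays, which lay above the other 6, so its values are given as a description.

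Between 4 h and 1 h of dexamethasone in the line, 0 of 11 P450 genes were called by limma, 1 had an unadjusted p under 0.05, and 19.7% of all probe sets were called, 10.3% higher and 9.34% lower. Without the filter, 8 of the 23 members were higher and 1 was lower on both 4 h arrays than on both 1 h arrays, beside 22.7% and 26.5%. The gene with the unadjusted p under 0.05 was CYP71B24, higher at 4 h by 0.93 (SE 0.43, adjusted p = 0.152). For CYP71B28 the 4 h value was 0.43 above the 1 h value (95% interval -0.05 to 0.92, adjusted p = 0.218). CYP71B22 and CYP71B34 stood close to their 1 h values, at -0.08 (-0.57 to 0.41) and -0.07 (-0.50 to 0.36).

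The other tested members passed no test in any of the 5 comparisons. CYP71B6, the indole nitrile enzyme, had 863.7 and 686.4 units in the uninduced line, 655.9 and 628.7 at 1 h, 659.6 and 677.4 at 4 h, and 601.5 and 768.0 in wild type. It was above the filter level on all 8 arrays, and it differed by -0.25 at 1 h (95% interval -0.62 to 0.12) and by -0.02 between 4 h and wild type (-0.39 to 0.35). CYP71B5 ran from 171.8 to 260.6 units over the 8 arrays, CYP71B23 from 111.9 to 264.9 and CYP71B35 from 80.0 to 209.4, with groups that overlapped in most comparisons. CYP71B37 had 76.0 and 85.3 units in the uninduced line, 71.3 and 93.3 at 1 h, 112.2 and 118.4 at 4 h, and 146.2 and 128.9 in wild type. Its treated 4 h groups lay above the uninduced arrays, yet neither 4 h in the line (0.35, adjusted p = 0.399) nor wild type (0.54, adjusted p = 0.198) passed the test.

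**Figure D3:**
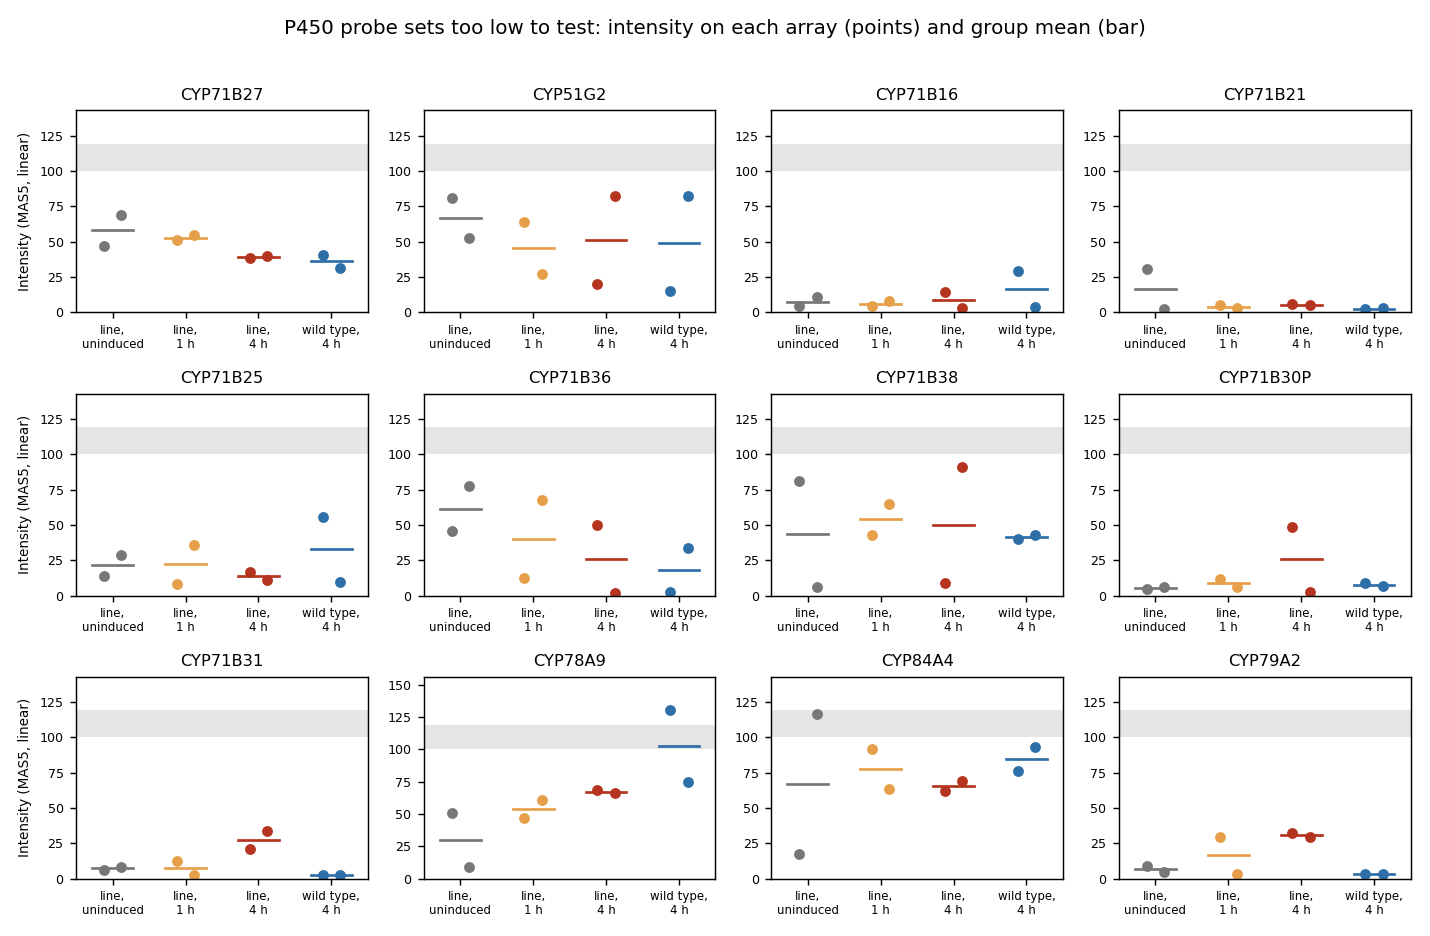
Intensity (linear scale, 1 value per array) of the 12 P450 probe sets that were too low to test, with points for arrays, bars for group means and the grey band for the filter level. Apart from 1 array each of CYP78A9 (130.3) and CYP84A4 (116.7), all values lie at or below 92.9 units.

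The 12 members that were not tested ran from 2.1 to 130.3 units, and 10 of them never passed the filter level on any array. Apart from CYP71B6, all the genes on the secondary metabolism and growth lists are among them. CYP79A2 had 9.0 and 4.7 units in the uninduced line, 29.5 and 3.3 at 1 h, 32.5 and 29.7 at 4 h, and 3.1 and 3.3 in wild type. CYP71B31 had 6.2 and 8.4 units in the uninduced line, 12.5 and 2.8 at 1 h, 20.9 and 33.5 at 4 h, and 2.3 and 2.4 in wild type. In both genes each 4 h array lay above the wild type and uninduced arrays, at levels where the table gives no call of presence. With no filter their differences between 4 h and wild type had adjusted p values of 0.297 and 0.271.

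CYP78A9, the fruit and seed size gene, had 50.5 and 8.9 units in the uninduced line, 46.8 and 60.9 at 1 h, 68.4 and 66.2 at 4 h, and 130.3 and 74.5 in wild type. Wild type held the highest values, and with no filter it differed from uninduced by 1.01 with an adjusted p of 0.0774. CYP84A4 ran from 61.9 to 92.9 units on the treated arrays and had 17.6 and 116.7 units on the uninduced ones, which span the whole range. The pseudogenes CYP71B27 and CYP51G2 stayed between 31.6 and 69.2 and between 15.3 and 82.5 units. CYP71B16, CYP71B21, CYP71B25 and CYP71B30P had medians of 3.95 to 15.3 units, and CYP71B36 and CYP71B38 had medians of 39.6 and 43.0.

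Position along the chromosomes was a feature that the rule did not use. On chromosome 3, 11 members of CYP71B lie within a stretch of 24 genes, of which 18 carry a CYP71B name in RefSeq. In gene order they are CYP71B16, CYP71B21, CYP71B22, CYP71B23, CYP71B24, CYP71B25, CYP71B26, CYP71B34, CYP71B35, CYP71B36 and CYP71B37. Of these 7 were tested, and at 4 h against uninduced 2 rose, 1 fell and 4 passed no test, beside 18.8% higher and 16.8% lower over all probe sets. The 2 that rose include CYP71B24, which passed the filter only through the treated groups. The risen CYP71B22 lies between CYP71B21, which stayed at or under 30.4 units, and CYP71B23, whose change at 4 h was -0.14 (95% interval -0.72 to 0.43). The fallen CYP71B34 is followed by CYP71B35, with a change of -0.13 (-0.88 to 0.62). Differences between neighbours were not tested. On chromosome 1, CYP71B27, CYP71B28 and CYP71B29 lie within 4 genes, all with CYP71B names, and there CYP71B28 was called and CYP71B29 missed the threshold in the same direction. All 23 probe set names end in the plain suffix, which the array's maker gives to probe sets meant for a single transcript, but cross-hybridisation between tandem copies was not tested.

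Other genes of the hormone and secondary metabolism pathways were matched for 19 genes, of which 14 were tested. At 4 h, 6 of the 14 rose and 2 fell against uninduced, and 1 was higher and 1 lower against wild type, beside 35.6% and 6.63% of all probe sets. The 6 include AOP3 and UGT78D1, which passed the filter only through treated groups, and AOP3 is the gene that was higher than wild type. These counts are therefore a description. Both genes called against wild type belong to glucosinolate synthesis. AOP3, an oxygenase that modifies glucosinolate side chains, had 514.4 and 463.8 units at 4 h, against 64.1 and 47.2 in wild type, a difference of 2.41 (SE 0.32). It passed the filter only through the 4 h arrays, so that a difference there was bound to appear. BCAT4, which starts methionine chain elongation, had 796.6 and 512.6 units at 4 h, against 1296.7 and 1661.0 in wild type, a difference of -1.14 (adjusted p = 0.005). Against the uninduced line, BCAT4 differed by -0.40 at 4 h (adjusted p = 0.195) and was higher in wild type by 0.75 (adjusted p = 0.0201). Among hormone genes, the gibberellin receptor gene GID1A fell by 1.06 and its homologue GID1B rose by 1.15 at 1 h against uninduced (adjusted p = 0.003 and 0.014, limma). At 4 h they differed from uninduced by -0.70 and 1.06 (adjusted p = 0.019 and 0.012). Neither was called between 4 h and wild type (-0.26 and 0.45, adjusted p = 0.655 and 0.526). The uninduced values of GID1B were apart, at 120.9 and 54.1 units, and GID1C was called in no comparison. OPCL1, a ligase of jasmonate synthesis, had 241.1 and 216.2 units in the uninduced line, 1063.7 and 909.4 at 1 h and 415.0 and 434.8 at 4 h, and 496.2 and 503.3 in wild type. It rose by 1.91 at 1 h, and the 4 h level differed from the 1 h level by -1.13. Wild type was also higher than the uninduced line, by 0.99, and 4 h differed from wild type by -0.21 (adjusted p = 0.626). UGT78D1, a flavonol rhamnosyltransferase gene, had 92.7 and 88.2 units in the uninduced line, 215.9 and 321.7 at 1 h, 282.2 and 272.5 at 4 h, and 287.6 and 243.7 in wild type. It was called higher in all 3 treated groups against uninduced. Both uninduced arrays lay under the filter level, so UGT78D1 passed the filter only through the treated groups, and these calls are given as a description. UGT74B1, the glucosyltransferase of glucosinolate synthesis, was called higher in the same 3 groups, by 1.32 after 1 h and 0.95 after 4 h in the line, and by 1.53 in wild type. At 4 h UGT74B1 differed from wild type by -0.58, which missed the threshold (adjusted p = 0.0507, limma). The flavonoid glucosyltransferase gene UGT78D2 rose by 0.97 at 1 h and 0.66 at 4 h, and HCT, an acyltransferase of lignin synthesis, fell by 0.45 at 4 h, all against uninduced. Between 4 h and wild type, UGT78D2 differed by 0.30 and HCT by -0.29, and neither was called (adjusted p = 0.585 and 0.350, limma). AT3G13610, which encodes the hydroxylase of scopoletin synthesis, was higher by 0.93 at 4 h than at 1 h and by 0.69 in wild type than uninduced.

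The labelled tissue was checked with leaf markers: 6 genes of photosynthesis summed to 108835 to 189494 units on every array, as in green seedlings. Their sum was 132987 to 158304 at 1 h, 108835 to 119918 at 4 h, 118184 to 122522 in wild type and 183382 to 189494 in the uninduced line. All 6 were called lower at 4 h and in wild type against uninduced, and 2 at 1 h, which is the direction of CYP71B28, and their part in its fall was not tested. Between 4 h and wild type 0 of the 6 were called. Of 3 genes of root tissue, PYK10 and NAI2 were lower at 4 h than in wild type, and EXPA7 was not called (-0.24, adjusted p = 0.821, limma). The 3 genes summed to 8138 to 9344 units at 4 h, against 12869 to 13749 in wild type, and their part in any P450 value was not tested. Of 3 seed genes OLEO3 rose at 4 h against both controls, and M10, with 471.2 and 422.7 units at 4 h and at most 14.3 on the other arrays, passed the filter only through the 4 h group. OLEO3 was also higher at 1 h than uninduced, by 1.08 (adjusted p = 0.0045, limma). The controls differed as well: OLEO3 had 252.6 and 138.7 units in the uninduced line and 40.4 and 80.3 in wild type (-1.18, adjusted p = 0.0014). The cause of that difference was not tested. The seed genes summed to 3049 to 3164 units at 4 h with LEA4-5 included, against 138 to 154 in wild type. LEA4-5, which was too low to test, did not share this rise. It had 45.1 and 3.2 units at 4 h, below the 85.6 and 68.2 in wild type. Its 4 h arrays overlapped the uninduced ones, which had 12.8 and 9.1 units.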

How the data were processed

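Biotin-labelled target from polyA RNA was hybridised to 1 ATH1 array per sample, per the labels' protocols. Each probe set has a single deposited intensity for every array, computed by the authors with MAS5 per the submitters' processing notes (version not given in the sources used here), and has no detection calls. Other columns of the deposited instrument records were used only for the order of scans and fluidics position. Of 22810 probe sets, 64 controls were left out. Genes came from the platform annotation, and RefSeq TAIR10.1 served for names, synonyms, gene order and the pseudogene annotation. Values became log2(intensity + 45), 45 being the 25th percentile of the table. The model gave each of the 4 groups a mean, over all 8 arrays, in limma 3.58.1 (R 4.3.3; eBayes with trend, 4 residual and 11.2 prior degrees of freedom). The fit was tested on simulated data. The number of arrays limits the precision of every value.

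Named genes are all members on the gene lists, up to 10 called members per direction and comparison, the 6 members with the highest mean, and up to 6 called pathway genes per list; the remaining members are named because they are few, which was decided after their values were seen. The symbols LCR, FDH and RTH matched unrelated genes and were dropped. The members and lists were chosen with earlier results of these data known. Same-numbered replicates did not deviate together (r from -0.06 to 0.03). Alternatives were the pseudocount (1 and 100), no filter, quantile normalization, a replicate block, no trend, fits of the compared groups alone, members without shared-target probe sets and leaving out each array.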

Additional observations from a re-analysis of the deposited data

How the results depend on the processing

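With 2 arrays per group, single arrays decided many calls. The number of P450 genes called at 4 h against uninduced was 4; it was 2 with no filter and ran from 1 to 5 when arrays were left out in turn. At 1 h against uninduced the count was 2; it was 1 with no filter, 1 with only the compared groups in the fit, and 1 to 2 when arrays were left out. For wild type against uninduced the count was 1; it was 0 with no filter, 3 without the trend, and 0 to 1 when arrays were left out. The counts of 0 for 4 h against wild type, for 4 h against 1 h and for both controls together were 0 under every alternative run. With the replicate block the counts were 4 at 4 h and 2 at 1 h against uninduced, 1 for wild type and 0 elsewhere, as without it; the numbers are not known to pair the samples. The small difference of CYP71B28 between 4 h and wild type changed sign when arrays were left out, from -0.14 to 0.18. The cause of these shifts was not tested. The fit with no filter brings more probe sets into the adjustment and also changes the standard errors. For CYP71B34 at 4 h against uninduced, the SE was 0.201 with the filter and 0.206 without it. Leaving out an array leaves fewer arrays in the fit. No member has a probe set of the shared-target kinds, so that alternative changed nothing. Signal limits what can be said of the 12 members below the filter level.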
